A study of Rattus norvegicus with 4 samples.

Results

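The 8 long non-coding RNA (lncRNA) transcripts described here form a chain of overlapping spans over 17943 bases on rat chromosome 13, from 52663050 to 52680992 in the genome build rn6. They were chosen by position, as every listed transcript whose span overlaps 52663050 to 52680902 by at least 1 base, and they are 8 of the 17934 lncRNA transcripts listed in at least 1 library. The stretch was singled out because it had the highest summed read count of any lncRNA locus, so its abundance is given as a description. Primary neonatal cardiomyocytes of Sprague-Dawley rats (1 to 2 days old) were kept for 24 h or 48 h in normal glucose (5 mmol/l, with 28 mmol/l of the sugar alcohol mannitol to match the osmolality) or in high glucose (33 mmol/l), in M199 medium that held carnitine, creatine and taurine in all groups. The high glucose medium was meant to induce oxidative stress and apoptosis. Lists of 4 values below run in 1 order, normal then high glucose at 24 h and normal then high glucose at 48 h. Each of the 4 groups was 1 library of strand-specific total RNA sequencing, so no difference between 2 libraries has a replicate check and p-values are given only for a fit over all 4. The labels do not say how many animals or cultures stand behind a library. The tables hold lncRNA transcripts without gene names, so the labelled cell type was not checked against coding markers.

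Many lncRNA catalogues, NONCODE among them, collect transcripts that lie inside or across protein-coding genes, and such transcripts can share exons or introns with the messenger RNA of the gene. The position was taken, when the locus was chosen, to be probably that of the cardiac troponin T gene (Tnnt2). This was not checked against an annotation of rn6, and whether the 8 transcripts lie in its exons, introns or untranslated regions was not analysed here. Cardiac troponin T is the subunit of the thin filament that ties the troponin complex to tropomyosin, is among the abundant proteins of heart muscle, and is known for developmentally regulated alternative splicing. Reads of a coding transcript at the same place could not be separated from those of the lncRNA transcripts, and the tables give no strand. The counts are whole numbers per transcript, and the sources used here do not state how a read that fits several of these transcripts was shared out, so summed counts may hold the same read more than once.

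Of the 8 transcripts, 2 run across most of the locus. NONRATT008251.2 spans 52663050 to 52680902 with a transcript length of 1027 nt, and NONRATT008253.2 spans 52667340 to 52680873 with 1785 nt. NONRATT008252.2 (52663055 to 52674707, 894 nt) starts 0.005 kb from the first base of the locus and ends early, while NONRATT008255.2 (52671456 to 52680992, 1306 nt) takes up the right part. The others are short spans, NONRATT008254.2 (52667957 to 52671441, 1339 nt), NONRATT008256.2 (52673290 to 52674279, 716 nt), NONRATT008257.2 (52678428 to 52679165, 738 nt) and NONRATT008258.2 (52679077 to 52680986, 497 nt). NONRATT008257.2 is a single block, since its length equals its span, and the other 7 are spliced. In 20 of the 28 pairs of transcripts the spans overlap. NONRATT008254.2 lies wholly inside the spans of NONRATT008251.2, NONRATT008252.2 and NONRATT008253.2, and a gap of 14 nt parts it from the start of NONRATT008255.2. Exon positions are not in the tables, so overlap of spans is not overlap of exons. All 8 passed the filter on low values (a mean of at least 1 FPKM and a length of at least 200 nt), and 7 were listed in all 4 libraries.

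**Figure D1:**
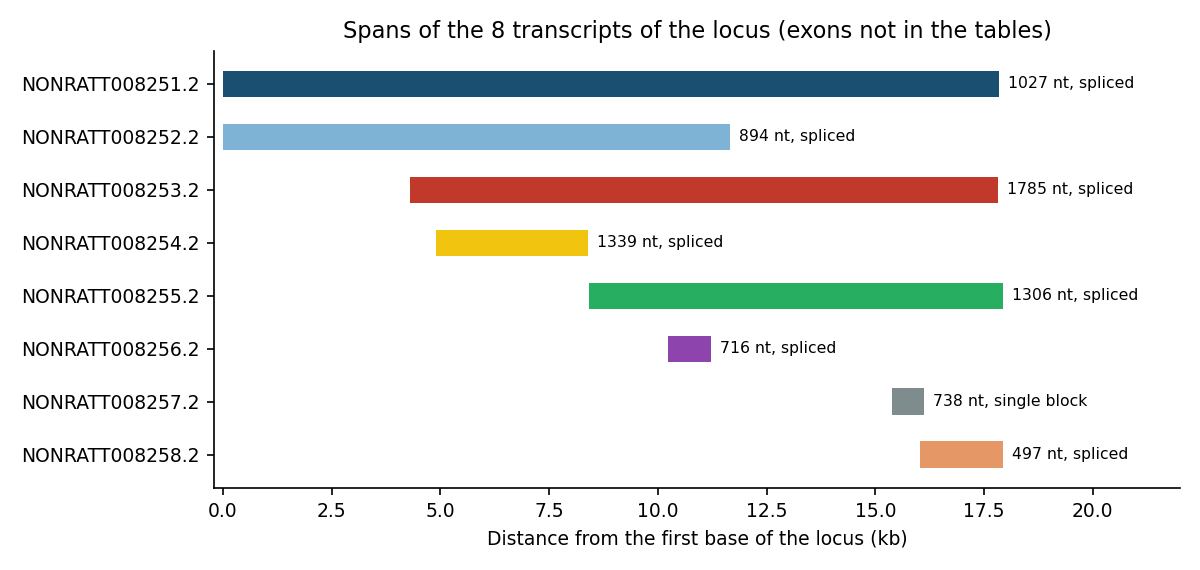
Spans of the 8 transcripts as bars along the locus, in kb from its first base, with transcript length and structure beside each. NONRATT008251.2 and NONRATT008253.2 cover the positions of most of the others, and NONRATT008254.2 ends just before NONRATT008255.2 starts.

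The locus as a whole held 21245, 27624, 24887 and 27216 counts. The 4 libraries had between 846946 and 1075428 lncRNA counts, and totals of between 11877876 and 15654189 behind their FPKM values, which were used to scale counts to CPM, counts relative to that total. On that scale the locus stood at 1789, 1765, 1675 and 1913 CPM. It therefore took 2.51% of the lncRNA counts (95% Wilson interval 2.48 to 2.54), 2.58% (2.55 to 2.61), 2.31% (2.29 to 2.34) and 3.01% (2.97 to 3.04). It ranked 1 by counts among the loci of every library and, by summed FPKM, 2 in 3 libraries and 1 in high glucose at 48 h. The next locus by mean CPM, that of NONRATT011827.2 on chromosome 16 (19384862 to 19396630), had a mean of 725 CPM against 1785 CPM here.

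With counts scaled by the library totals, the locus total differed little between the libraries. Its highest CPM was 1.14 times its lowest, against a median of 1.29 over the 161 loci with a mean of at least 1000 counts, of which 27 varied less. After 24 h the total in high glucose was 0.987 times that in normal glucose (95% counting interval 0.969 to 1.00), and after 48 h 1.14 times (1.12 to 1.16). From 24 h to 48 h the total was 0.937 times as high in normal glucose (0.920 to 0.954) and 1.08 times in high glucose (1.07 to 1.10). Intervals here and below are exact and cover counting error only, since reads from PCR without molecular identifiers are not independent molecules. The direction at 24 h depended on the scaling (the library totals, or TMM factors, DESeq2's size factors and equal count sums). Under the other scalings tried the ratio was 1.02 to 1.03 at 24 h and 1.30 to 1.31 at 48 h. The total thus spread more between libraries under them, and its standing among the 161 loci was not worked out there. In edgeR's quasi-likelihood test on counts summed per locus, with terms for medium and time, the locus total had a fitted log2 change of 0.09 for high glucose (Benjamini-Hochberg adjusted p = 0.866) and 0.01 for 48 h (adjusted p = 1.00).

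Among the transcripts the 2 long spans carried most of the reads. NONRATT008251.2 had 11386, 15071, 13382 and 10345 counts. Per length this was a level of 933, 937, 877 and 708 FPKM. It was the transcript with the highest mean CPM of all that were listed, and high glucose at 48 h was its lowest library.

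NONRATT008253.2 had 6412, 7337, 7361 and 11933 counts. Its levels were 302, 263, 278 and 469.9 FPKM, the fifth highest mean among all transcripts on that scale. High glucose at 48 h was its highest library, and the other 3 lay close together, between 469 and 539.8 CPM. Together these transcripts held between 81.1% and 83.8% of the locus counts in every library.

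NONRATT008258.2, the short spliced transcript at the right end, had levels of 210.4, 195, 115 and 204 FPKM. Its counts were 1242, 1515, 851 and 1443. The normal glucose library at 48 h was the low one here, and the other 3 lay between 96.8 and 105 CPM. NONRATT008255.2 had 1309, 1868, 1642 and 2095 counts, with 84.4, 91.4, 84.6 and 113 FPKM, and was again highest in high glucose at 48 h.

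The other 4 transcripts were minor ones. NONRATT008252.2 ranged from 28.5 to 34.9 FPKM, NONRATT008256.2 from 25.5 to 29.6 FPKM and NONRATT008257.2 from 29.3 to 40.04 FPKM over the 4 libraries. NONRATT008254.2 was not listed in the first of the 4 libraries, normal glucose at 24 h, and had 635 (30.3 FPKM), 601 (30.2 FPKM) and 423 counts (22.2 FPKM) in the next ones. It alone of the 8 was near absent from a library. By mean CPM, 3 of the 8 stood among the 100 highest lncRNA transcripts, and by mean FPKM 4 did.

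**Figure D2:**
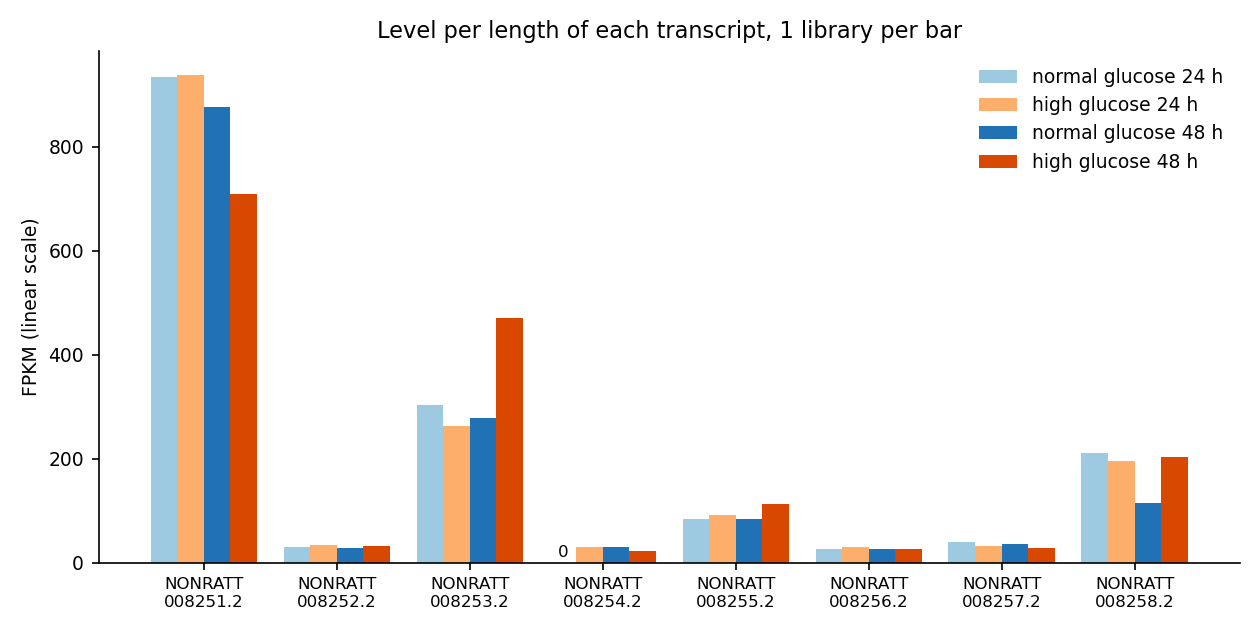
FPKM (level per length, linear axis from 0) of the 8 transcripts, with 1 bar per library and no error bars, since each group was 1 library. At 48 h NONRATT008251.2 stands at 877 FPKM in normal and 708 FPKM in high glucose and NONRATT008253.2 at 278 and 469.9 FPKM, and the 0 marks NONRATT008254.2 in normal glucose at 24 h.

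The shares of NONRATT008251.2 and NONRATT008253.2 stood apart in high glucose at 48 h. Among the other 3 libraries they varied by at most 0.964 and 3.62 percentage points. NONRATT008254.2 and NONRATT008258.2 did not follow this pattern. Their largest changes, 2.41 and 2.43 percentage points, were the same without high glucose at 48 h. NONRATT008251.2 took 53.6% (95% Wilson interval 52.9 to 54.3), 54.6% (54.0 to 55.1), 53.8% (53.2 to 54.4) and 38.0% (37.4 to 38.6) of the locus counts. NONRATT008253.2 took 30.2% (29.6 to 30.8), 26.6% (26.0 to 27.1), 29.6% (29.0 to 30.1) and 43.8% (43.3 to 44.4). In high glucose at 48 h, NONRATT008253.2 thus held more counts than NONRATT008251.2, and in the other 3 libraries it held fewer. Shares within a locus do not depend on how libraries are scaled to each other.

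As a ratio, there were 0.563 (95% counting interval 0.546 to 0.581), 0.487 (0.473 to 0.501), 0.550 (0.535 to 0.566) and 1.15 (1.12 to 1.18) counts of NONRATT008253.2 per count of NONRATT008251.2. The ratio in high glucose was 0.864 times that in normal glucose after 24 h (0.829 to 0.901, an interval for counting error on the log scale) and 2.10 times after 48 h (2.02 to 2.18). From 24 h to 48 h the factor was 0.977 in normal glucose (0.937 to 1.02) and 2.37 in high glucose (2.28 to 2.46). Per length the order of the levels did not turn, since NONRATT008253.2 is the longer transcript. NONRATT008251.2 had 3.09, 3.57, 3.16 and 1.51 times the FPKM of NONRATT008253.2 in the 4 libraries. It held 57.4%, 58.1%, 59.5% and 44.1% of the summed FPKM of the locus, and NONRATT008253.2 held 18.6%, 16.3%, 18.8% and 29.3%.

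**Figure D3:**
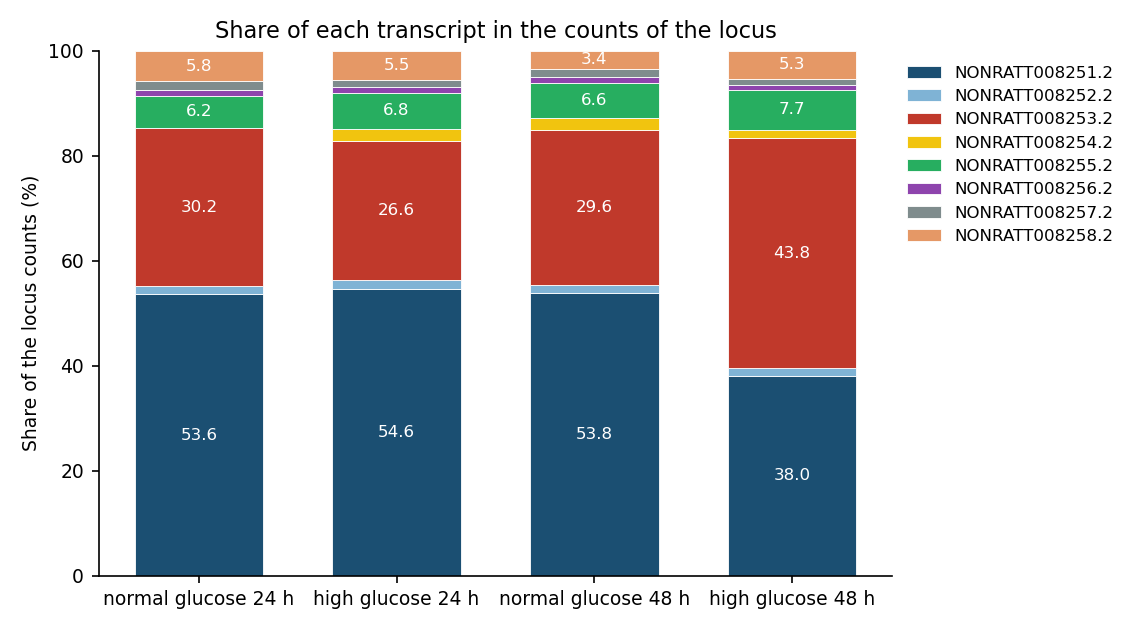
Share of the locus counts (%) held by each of the 8 transcripts, stacked to 100% for each of the 4 libraries, with the larger shares printed. The boundary between NONRATT008251.2 and NONRATT008253.2 sits at a similar height in 3 libraries and lower in high glucose at 48 h, where their shares are 38.0% and 43.8%.

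The remaining shares of the counts differed by few points. NONRATT008255.2 held between 6.16% and 7.70% of the locus counts, lowest in normal glucose at 24 h and highest in high glucose at 48 h. NONRATT008258.2 held 5.85%, 5.48%, 3.42% and 5.30% (12.9%, 12.1%, 7.81% and 12.7% of the summed FPKM), so its share was low in normal glucose at 48 h. NONRATT008252.2 ranged from 1.50% to 1.77%, NONRATT008256.2 from 0.955% to 1.20% and NONRATT008257.2 from 1.13% to 1.65%. NONRATT008254.2 held 2.30%, 2.41% and 1.55% in the 3 libraries that list it. In the remaining one it had 0 of 21245 counts, and the Wilson interval of its share ends at 0.0181%. At the lowest of its other shares that library would have held 330 of its reads. A search made after this was seen, for transcripts missing from 1 library and with at least 300 reads in each of the other 3, found NONRATT008254.2 alone for normal glucose at 24 h, 2 transcripts for high glucose at 48 h and 0 for each of the other libraries.

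The comparison of high with normal glucose at 24 h asked which transcripts differed early. NONRATT008251.2 was at 1.00 times its normal glucose level (95% counting interval 0.980 to 1.03), while NONRATT008253.2 was 1.15-fold lower (1.11 to 1.19). With a floor of 3 counts in the library without it, NONRATT008254.2 was 160.6-fold higher, and its counting interval starts at 130.2. NONRATT008255.2 was 1.08-fold higher (1.01 to 1.16), NONRATT008257.2 1.23-fold lower (1.06 to 1.42) and NONRATT008258.2 1.08-fold lower (1.00 to 1.17). NONRATT008252.2 and NONRATT008256.2 had intervals that included 1. Of the 8 transcripts, 1 was past 2-fold on the scale of log2 (CPM + 1), as were 4.89% of the 7321 measured transcripts. Intervals excluded 1 for 2 of the 8 as higher, against 7.62% of measured transcripts, and for 3 as lower, against 10.8%. The 8 are more deeply covered than most, so their intervals are narrower. Under the other scalings the interval of NONRATT008258.2 included 1 (ratios of 0.957 to 0.966), and those of NONRATT008251.2 (1.04 to 1.05) and NONRATT008252.2 (1.18 to 1.19) excluded it. The interval of NONRATT008256.2 excluded 1 under TMM factors (1.19) and equal count sums (1.20). The median log2 ratio of the 8 was 0.06, beside -0.04 over all measured transcripts.

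At 48 h the 2 main transcripts differed in opposite directions. NONRATT008251.2 was 1.24-fold lower in high glucose (1.21 to 1.27), at 727 against 901 CPM, and NONRATT008253.2 1.69-fold higher (1.64 to 1.74), at 839 against 495 CPM. NONRATT008258.2 was 1.77-fold higher (1.63 to 1.93) and NONRATT008255.2 1.33-fold higher (1.25 to 1.42). NONRATT008254.2 was 1.36-fold lower (1.20 to 1.54) and NONRATT008257.2 1.22-fold lower (1.04 to 1.42), the latter in the same direction as at 24 h. The call of NONRATT008257.2 was lost under the other scalings, with ratios of 0.936 to 0.947 and intervals that included 1. Intervals of NONRATT008252.2 and NONRATT008256.2 again included 1, that of NONRATT008252.2 only with the library totals (1.29 to 1.30 under the others). None of the 8 passed 2-fold with the library totals, against 7.17% of measured transcripts, and intervals excluded 1 for 3 as higher, against 9.52%, and for 3 as lower, against 22.5%. The median log2 ratio of the 8 was 0.06, beside -0.14 over all measured transcripts. That lower median itself depended on the scaling. It stood at -0.01 under TMM factors, which are computed on the same transcripts so that such an offset is removed. With equal count sums it stood at -0.02. Ratios in high glucose at 48 h are thus relative to the scaling chosen. Under TMM factors, size factors and equal count sums NONRATT008258.2 was at ratios of CPM of 2.03, 2.04 and 2.02. On the scale of log2 (CPM + 1) these were 1.009, 1.014 and 0.998, so it did not pass 2-fold with equal count sums. Of the 7321 measured transcripts, 258, 261 and 252 passed 2-fold as higher under these scalings, and 246, 246 and 247 as lower. NONRATT008253.2 stood at 1.94, 1.95 and 1.93, and NONRATT008251.2 remained lower, at 0.926, 0.929 and 0.919.

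**Figure D4:**
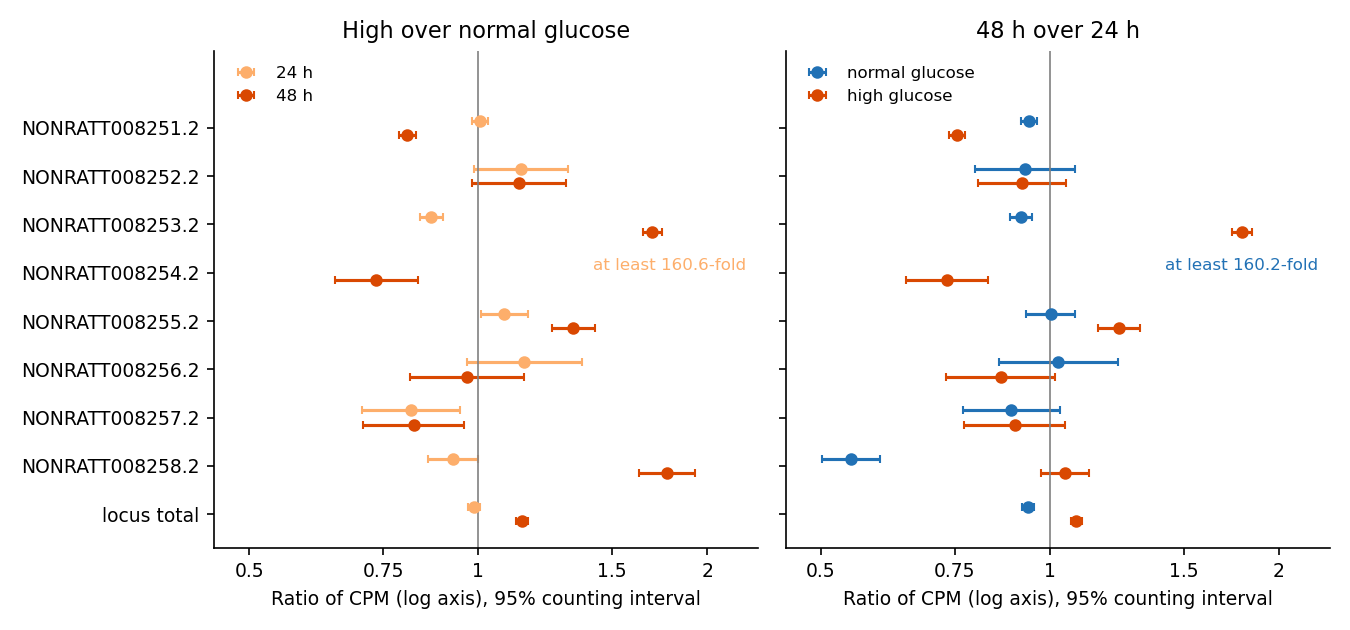
Ratios of CPM for the 8 transcripts and the locus total (log axis, grey line at 1), high over normal glucose on the left and 48 h over 24 h on the right, with 95% counting intervals as bars. NONRATT008253.2 lies below 1 at 24 h (0.868) and at 1.69 at 48 h. The locus total, scaled by the library totals, stays between 0.937 and 1.14. Text marks the ratios of NONRATT008254.2 against a floor of 3 counts in the library that does not list it. The counting intervals of these ratios start lower, at 130.2 and 129.9.

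Between 24 h and 48 h in normal glucose, NONRATT008258.2 was 1.83-fold lower (1.67 to 1.99). NONRATT008254.2 was 160.2-fold higher against the floor of 3 counts, with an interval that starts at 129.9. NONRATT008251.2 was 1.06-fold lower (1.04 to 1.09) and NONRATT008253.2 1.09-fold lower (1.05 to 1.13), so both of the main pair were slightly lower. The other 4 had intervals that included 1. Past 2-fold was 1 of the 8, as were 4.67% of measured transcripts, and intervals excluded 1 for 1 as higher, against 8.88%, and for 3 as lower, against 8.51%.

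In high glucose the main pair differed with time in opposite directions. NONRATT008251.2 was 1.32-fold lower at 48 h than at 24 h (1.29 to 1.36), at 727 against 963 CPM, and NONRATT008253.2 1.79-fold higher (1.74 to 1.84), at 839 against 469 CPM. NONRATT008255.2 was 1.23-fold higher (1.16 to 1.31) and NONRATT008254.2 1.36-fold lower (1.20 to 1.55), and the other 4 had intervals that included 1, that of NONRATT008258.2 only with the library totals (1.13 to 1.15 under the others). None was past 2-fold, against 6.91% of measured transcripts, and intervals excluded 1 for 2 as higher, against 10.2%, and for 2 as lower, against 19.8%. The 2 comparisons that hold the high glucose library at 48 h share it, so their likeness is not a repeat.

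In the fit over all 4 libraries no member passed. edgeR's quasi-likelihood test with terms for medium and time, adjusted over the 7321 measured transcripts, called 0 of the 8 for glucose (smallest adjusted p = 0.882) and 0 for time (smallest adjusted p = 0.950), where it called 0.0137% and 0% of the measured transcripts. At an unadjusted p under 0.05 it also had 0 of the 8 in either comparison, beside 4.75% and 4.25% of measured transcripts, and DESeq2 called 0 of the 8 in both, where it called 0.392% (glucose) and 0.508% (time) of the transcripts it tested. For glucose the fitted log2 changes were -0.15 for NONRATT008251.2 and 0.28 for NONRATT008253.2, with unadjusted p of 0.274 and 0.350 by edgeR. The fit has 1 residual degree of freedom and takes the other time or medium as the replicate, so a response seen at 48 h alone counts as spread in it.

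The shift between the 2 main transcripts was set among other loci by the largest change of any transcript's share between 2 libraries. It was 17.3 percentage points here, for NONRATT008253.2 between high glucose at 24 h and at 48 h, and ranked 13 of the 70 loci with at least 2 transcripts and a mean of at least 1000 counts. The median of these loci was 2.65 points, and 17 of them, 24.3%, changed by at least 10 points. Without the high glucose library at 48 h the largest change here was 3.62 points, and the rank 29 of 70. Among the 17 loci, high glucose at 48 h gave the highest share of the changing transcript in 5 and the lowest in 7, high glucose at 24 h in 5 and 6, normal glucose at 48 h in 5 and 2, and normal glucose at 24 h in 2 and 2. The other 3 loci with a mean of at least 5000 counts, a limit set after the values were seen, changed by between 0.474 and 6.63 points. They give no measure of how unusual 17.3 points are at this depth. At the loci of NONRATT007996.2 and NONRATT011827.2, each of 2 transcripts, the minor one held at most 0.799% and 1.11% of the counts. The locus of NONRATT021419.2, of 10 transcripts, was not dominated in this way. There NONRATT021428.2 held between 53.5% and 60.1%, the change of 6.63 points. The median of 2.65 points also takes in loci with 1 dominant transcript, such as that of NONRATT013342.2 (99.9% in every library).

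**Figure D5:**
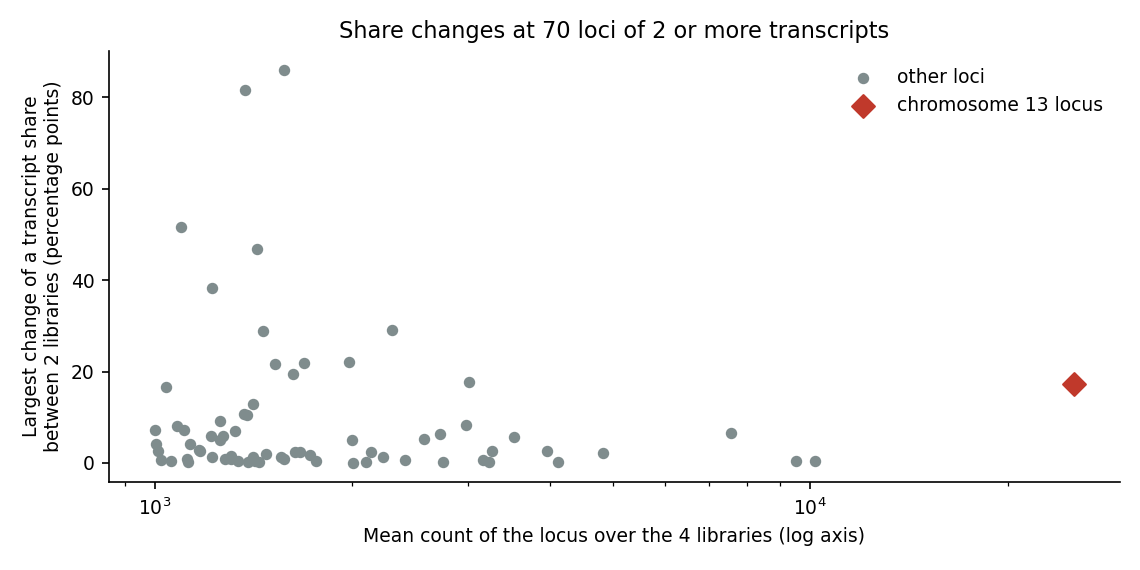
Largest change of a transcript's share between 2 libraries (percentage points) against the mean count of the locus (log axis), 1 point for each of 70 loci with at least 2 transcripts and a mean of at least 1000 counts. The chromosome 13 locus, at 17.3 points, is the point farthest to the right, and the median locus changed by 2.65 points.

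Transcripts nearby were far less abundant. Within 250 kb on either side, 11 other transcripts were listed, 8 to the left and 3 to the right, and 9 of them were measured. The highest was NONRATT008245.2 to the left, with 761, 853, 963 and 767 counts, at most 64.8 CPM in a library. The nearest ones that the rule left out were 25.9 kb to the left and 30.6 kb to the right. Of the 9 measured, 1 (NONRATT008753.2, with 19 counts in normal and 1 in high glucose) was past 2-fold at 24 h, as lower, and 0 passed 2-fold in the other 3 comparisons.

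The loci whose totals followed the 4 libraries most like this one were found by the root mean square difference of log2 (CPM + 1), centred on each locus's own mean, over 160 other loci and 4 libraries. The nearest was the locus of NONRATT015792.2 on chromosome 2 (240620154 to 240655863, 10 transcripts) with 218, 208, 199 and 229 CPM and a difference of 0.02. The next was NONRATT008839.2 on chromosome 13 (72913338 to 72918197) with 145, 139, 137 and 157 CPM and a difference of 0.02. For NONRATT008254.2 the nearest measured transcripts were NONRATT028730.2 on chromosome 8 (0.168, 9.07, 11.4 and 10.7 CPM, difference 0.88) and NONRATT018275.2 on chromosome 3 (10.5, 160.5, 184 and 42.95 CPM, difference 1.07). Both were lowest in normal glucose at 24 h, which the choice by likeness to NONRATT008254.2 favoured, and 4 libraries give no test of likeness.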

How the data were processed

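Per the submitters' processing notes, TopHat2 2.1.0 and Cufflinks were used with the builds rn6 and Rnor_6.0. Which tool counted reads, with which strand setting and which annotation version, is a step not given in the sources used here. Read counts per lncRNA transcript were deposited, per the file headers, with FPKM values beside them. Only transcripts with at least 1 read are listed, and an unlisted one was taken as 0. Transcript lengths were deposited with the normal glucose library at 24 h, and that of NONRATT008254.2 was recovered from count and FPKM. Library totals (11877876 to 15654189, 1 read being 0.0639 to 0.0842 CPM) are the median of count over FPKM and length for transcripts with at least 10 reads.

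Members, lists and rules were chosen with earlier results of these data known. All members are named. The most alike loci and transcripts are the 2 nearest by the stated measure, the transcripts only for a member whose highest CPM is over 8 times its lowest. Tests used edgeR 4.0.16 (estimateDisp, glmQLFit, glmQLFTest, library totals as sizes), checked on simulated data, with DESeq2 1.42.0 as an alternative, and Benjamini-Hochberg adjustment at 0.05. The simulated glucose changes were shared by both times and larger than 2-fold. That check therefore does not cover smaller changes or changes at 1 time alone. Loci are chains of spans that overlap by at least 1 nt, without regard to strand. Ratio intervals at 95% are Clopper-Pearson intervals of 1 count in the sum of the pair. Those of a ratio of ratios are normal approximations on the log scale. No sequences are shown, since no genome of rn6 was used here.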

Additional observations from a re-analysis of the deposited data

Results flagged for a closer look

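Some transcripts had glucose or time ratios in opposite directions, with counting intervals that excluded 1 on both sides when scaled by the library totals. With 1 library per group, none of these differences between times or media was tested. NONRATT008253.2 was at 0.868 times normal glucose in high glucose at 24 h and at 1.69 times at 48 h. Its 48 h over 24 h ratio was 0.918 in normal and 1.79 in high glucose, and either pair of ratios differs by a factor of 1.95. NONRATT008258.2 had glucose ratios of 0.926 at 24 h and 1.77 at 48 h, a factor of 1.91, and under the other scalings its ratio at 24 h was 0.957 to 0.966 with an interval that included 1, so the opposition was lost there.

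NONRATT008254.2 was at least 160.6-fold higher in high glucose at 24 h and stood at 0.735 times normal glucose at 48 h. Its time ratio in normal glucose was 160.2-fold against the same floor, with an interval that starts at 129.9, and in high glucose 0.733. Both opposites rest on the normal glucose library at 24 h, which does not list the transcript. The locus total had time ratios of 0.937 in normal and 1.08 in high glucose, a factor of 1.16.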

How the results depend on the processing

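No paired analysis was possible because each group is 1 library and the labels give no replicate numbers. For the locus total, the glucose ratio at 24 h moved from 0.987 to 1.02 with TMM factors, 1.02 with size factors and 1.03 with equal count sums. At 48 h it moved from 1.14 to 1.31, 1.31 and 1.30, to 1.11 with NONRATT008251.2, NONRATT008253.2 and NONRATT008254.2 alone, and to 1.10 with the 6 transcripts wholly inside 52663050 to 52680902. The 48 h over 24 h ratio in normal glucose moved from 0.937 to 0.959 and 0.958 with these sets of transcripts, and in high glucose from 1.08 to 1.19, 1.19 and 1.16 with the scalings. As shares of summed FPKM, the largest share was 57.4%, 58.1% and 59.5% in the libraries other than high glucose at 48 h. There the largest share turned from NONRATT008253.2 to NONRATT008251.2 (44.1%), and the largest change of a share was 15.3 points, of NONRATT008251.2 in place of NONRATT008253.2. Leaving out each library in turn, an alternative added after the data were seen, gave a largest change of 3.62 to 17.3 points and a rank of 11 to 29. The 3.62 points and the rank of 29 were without high glucose at 48 h, and the rank of 11 without high glucose at 24 h. Among 509 loci with a mean of at least 100 counts the rank was 127, and by FPKM it was 17 of 70. The count of members called by adjusted p was 0 for glucose and 0 for time with TMM factors and by DESeq2. It was also 0 with no filter on low values and with loci in place of transcripts. The smallest adjusted p among these was 0.807 for glucose and 0.509 for time, both by edgeR with no filter. Over all transcripts tested, these alternatives called for glucose 45 of 17934 with no filter, 22 of 5617 by DESeq2, 2 of 6201 loci and 0 of 7321 with TMM factors. For time they called 71 of 17934 with no filter, 35 of 6895 by DESeq2, 2 of 6201 loci and 0 of 7321 with TMM factors. Fits on 3 libraries left out the second term, so 1 group was a single library and time and medium were confounded. Their p-values and calls are not given. Of the 32 log2 ratios of the members, 3 had the opposite sign with TMM factors, 3 with size factors, 2 with equal count sums and 0 with a pseudocount of 0.1 CPM. Those of opposite sign were of NONRATT008252.2, NONRATT008255.2 and NONRATT008256.2, and the counting intervals of each included 1. Depth gave the minor transcripts intervals wider than those of the main pair.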
